A study of Mus musculus with 18 samples.

Results

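The p53 pathway and the apoptosis machinery it feeds were followed through 32 named genes in cultures of mouse cortical neurons that overexpressed a proteasome subunit or a control protein. The genes were chosen by name, as p53 itself, its inhibitors, its transcriptional targets and the regulators and executioners of mitochondrial apoptosis. All 32 were found among the 43629 gene IDs of the count table, and all 32 passed the filter on low counts that left 15671 genes for testing. p53, encoded by Trp53, is a transcription factor that is kept low by the ubiquitin ligase Mdm2 and its partner Mdm4. When DNA damage or other stress stabilises it, p53 raises genes that arrest the cell cycle, repair DNA or permeabilise mitochondria. In neurons, which do not divide, the apoptotic arm is the better known one, with BH3-only proteins such as Puma (Bbc3). BH3-only proteins neutralise the Bcl2-type survival proteins, and a pore-former, Bax or Bak1, then opens the outer mitochondrial membrane. Cytochrome c released through it assembles Apaf1 and caspase 9 into the apoptosome.

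Poly(A)-enriched RNA was sequenced from 18 cultures labelled as cortical neuronal cultures, 6 in each of 3 groups. In the mSc group the construct encoded mScarlet, a fluorescent protein that served as the control. The Psmb5 group overexpressed Psmb5, the chymotrypsin-like subunit of the standard 20S proteasome, and the Psmb8 group overexpressed Psmb8, the subunit that replaces it in the interferon-inducible immunoproteasome. Lentivirus carried the constructs into all 3 groups at day 7 in vitro, controls included, and RNA was taken 10 days later. What promoter drove the constructs, which mouse strain was used and whether replicates were separate dissections is not given in the sources used here. The p-values therefore refer to the spread among these 18 libraries, part of which may be technical. The description of the transduction in the labels speaks of an Ifng construct for every sample, whereas the treatment tags name 3 other constructs. Each group carries replicate numbers 1 to 6, whose meaning the labels do not give.

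Library totals ranged from 15337511 to 21074229 counts. Values are given as CPM (each library's counts scaled to a common total) after TMM scaling, a correction for library composition. The 2 transgenes fitted the treatment tags: Psmb5 averaged 451 CPM ± 113 in its own group, against 42.9 ± 1.49 in mSc and 48.3 ± 1.90 in the Psmb8 group (SD, n = 6 each), and Psmb8 averaged 887 ± 198 in its own group, against 6.28 ± 7.76 in mSc and 5.03 ± 5.48 in the Psmb5 group. The summed level of 8 neuronal markers lay between 3609 and 4537 CPM in every library. Astrocyte markers were present too: 10 of 10 passed the filter, and their sum ranged from 1427 to 5214 CPM in mSc, 1620 to 4374 in Psmb5 and 1510 to 4415 in Psmb8, with the 3 highest libraries all bearing number 1. Of 10 microglial markers 3 passed, and the defining gene Tmem119 had 0 counts in 17 of 18 libraries and the endothelial gene Cldn5 in all 18. In such mixed cultures fewer cells of a type and less RNA per cell cannot be told apart.

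The promoter sequences of the members differed in their matches to the p53 consensus. RefSeq windows from 250 bases before to 50 bases after the gene start (GRCm38.p6) matched 29 of the 32 members, all but Zmat3, Pmaip1 and Trp53inp1. They were searched on both strands for the 10-base p53 half-site consensus, for the full p53 site (a pair of half-sites at most 13 bases apart), for the cyclic AMP response element TGACGTCA and for the forkhead motif GTAAACA. A half-site was found in 8 of 29 members (27.6%), among them Trp53, Mdm2, Cdkn1a, Ccng1, Sesn1, Aen, Gadd45a and Bax, against 9.55% of 27025 genes with a window, counting half-sites that are part of a full site. Cdkn1a was the only member with a full site, which 0.074% of those genes had. The forkhead motif stood in 6 of 29 members (20.7%), namely Mdm2, Sesn1, Btg1, Eda2r, Bbc3 and Bcl2l11, against 4.05% of genes. The cyclic AMP element stood in 1 of 29 members (3.45%), Plk2, against 2.03% of genes, and nothing particular to the members is read from it. A gene counted if any of its windows matched, and the number of windows per gene was not matched between members and all genes. Many members were chosen as p53 targets, so their share of half-sites is not read as a result. A match of letters is a description and shows no binding, and the motifs were chosen after earlier values of these genes had been seen.

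The p53 half-sites are shown for genes whose products arrest growth, feed back on p53 or open mitochondria, with the match in capitals and each sequence written 5′ to 3′ on the gene's own strand. They lie at chr17:29090861-29090975 (plus strand, Cdkn1a, where the capitals span the full site from position -73 relative to the gene start), chr10:117710890-117710989 (minus strand, Mdm2), chr11:40755417-40755516 (minus strand, Ccng1), chr7:45467045-45467144 (minus strand, Bax) and chr11:69580256-69580338 (plus strand, Trp53).
Cdkn1a: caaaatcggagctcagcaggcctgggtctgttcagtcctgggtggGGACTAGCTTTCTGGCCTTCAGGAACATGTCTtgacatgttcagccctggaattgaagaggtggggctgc
Mdm2: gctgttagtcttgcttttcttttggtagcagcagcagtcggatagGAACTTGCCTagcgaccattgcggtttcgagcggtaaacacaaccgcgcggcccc
Ccng1: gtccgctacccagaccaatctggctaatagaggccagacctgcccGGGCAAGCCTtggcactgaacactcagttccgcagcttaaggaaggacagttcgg
Bax: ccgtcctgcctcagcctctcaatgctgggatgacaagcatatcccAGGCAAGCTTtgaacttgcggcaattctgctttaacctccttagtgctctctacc
Trp53: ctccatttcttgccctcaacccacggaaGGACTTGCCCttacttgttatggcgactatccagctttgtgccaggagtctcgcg

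The other motifs are shown for 5 members called between replicate numbers and described by number further on; these were picked after their values were seen. The cyclic AMP element of Plk2 lies in chr13:110394937-110395034 (plus strand), and the forkhead matches, which may be on either strand, lie in chr10:96616752-96616848 (plus strand, Btg1), chrX:97377283-97377379 (minus strand, Eda2r), chr7:16310049-16310145 (plus strand, Bbc3) and chr2:128125788-128125862 (plus strand, Bcl2l11).
Plk2: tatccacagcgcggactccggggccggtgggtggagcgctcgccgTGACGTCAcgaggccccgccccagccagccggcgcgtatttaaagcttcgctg
Btg1: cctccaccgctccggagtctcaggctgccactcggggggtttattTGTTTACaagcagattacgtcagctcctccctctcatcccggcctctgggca
Eda2r: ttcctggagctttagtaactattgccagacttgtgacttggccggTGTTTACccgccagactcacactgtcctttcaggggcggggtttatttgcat
Bbc3: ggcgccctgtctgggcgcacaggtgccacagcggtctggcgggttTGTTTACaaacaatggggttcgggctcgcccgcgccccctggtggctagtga
Bcl2l11: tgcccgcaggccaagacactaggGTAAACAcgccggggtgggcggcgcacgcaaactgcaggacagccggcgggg

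In control cultures the members spanned a wide range of transcript levels, compared here per kilobase of annotated exon (GENCODE M21, GRCm38; exonic lengths 1559 to 14798 bases). The highest was Plk2, a polo-like kinase that is also induced by synaptic activity, at 48.2 CPM per kb ± 9.92 (SD, n = 6). It was followed by Cdkn1a, the cyclin-dependent kinase inhibitor p21, at 42.1 ± 10.5, by Bbc3 at 37.7 ± 10.9 and by the pore-former Bax at 32.9 ± 1.74. Ccng1, a cyclin that recruits a phosphatase to Mdm2, stood at 28.2 ± 1.98 and the short-lived survival protein Mcl1 at 27.7 ± 4.04. Of the 31 neighbouring pairs in this order 30 had overlapping ranges over the 6 mSc libraries, so the exact ranks are loose; Bax and Ccng1 were the pair that did not overlap.

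The anti-apoptotic genes did not stand at one level. Per kilobase, Mcl1 was followed by Bcl2l2 (encoding Bcl-w) at 23.3 ± 1.32 and Bcl2l1 (encoding Bcl-xL) at 18.4 ± 2.57, whereas Bcl2 itself stood at 2.87 ± 0.590. The BH3-only genes were as unequal: Hrk stood at 20.7 ± 3.26, Bid at 5.67 ± 0.883, Pmaip1 (Noxa) at 4.2 ± 1.1 and Bcl2l11 (Bim) at 1.96 ± 0.538. Bak1, the partner of Bax in pore formation, stood at 9.08 ± 0.374.

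Downstream of the mitochondria the levels were low. The caspase inhibitor Xiap stood at 6.41 CPM per kb ± 0.587, its antagonist Diablo (Smac) at 5.07 ± 0.256, Casp9 at 4.28 ± 0.517 and Apaf1 at 4.07 ± 0.396. The executioner caspase gene Casp6 was the lowest of the 32, at 1.04 ± 0.0894, and the death receptor gene Fas was next, at 1.72 ± 0.396. Fas and Casp6 rested on 37 to 114 and 88 to 134 counts per library, Gadd45a on 50 to 344, and counting error weighs most on them. Exons of 10 of the 32 members overlap another annotated gene, on the opposite strand for 8 of them, and reach 40.9% of exonic bases in Diablo. Whether the counting used strand is not given in the sources used here, so reads of such pairs cannot be told apart.

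**Figure D1:**
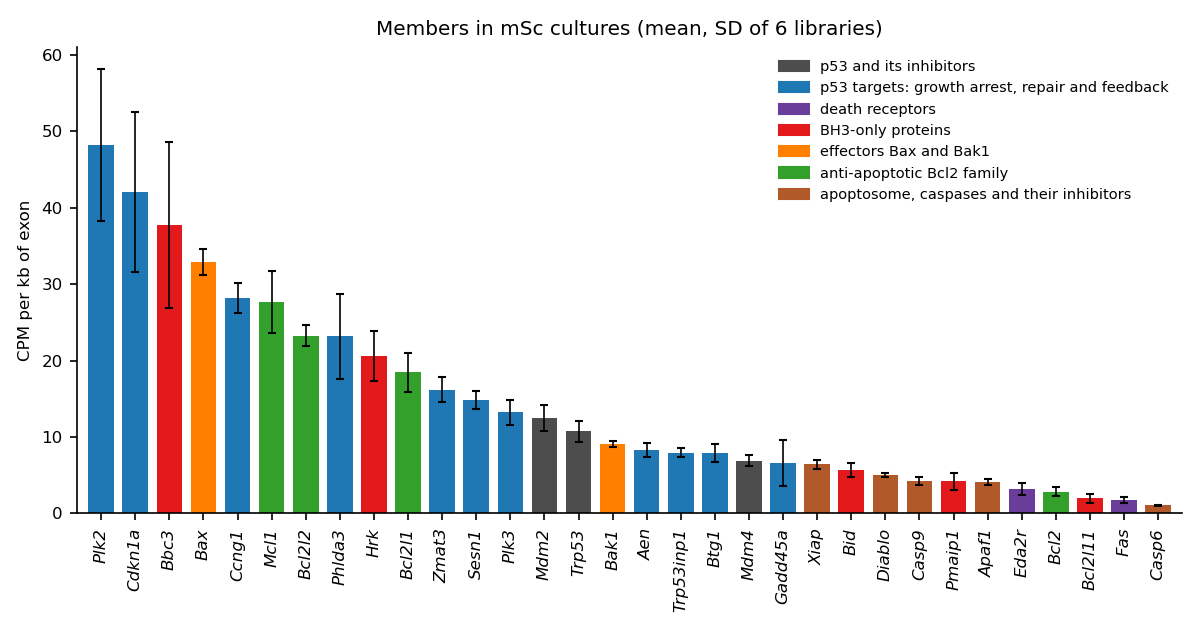
Transcript level of the 32 genes in the mSc libraries, in CPM per kilobase of exon on a linear axis; bars are means and error bars SDs of 6 libraries, coloured by role. Plk2, Cdkn1a, Bbc3 and Bax stand highest, and Fas and Casp6 lowest.

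Overexpression of either proteasome subunit was followed by no change in any of these 32 transcripts that passed the test. In each of the 3 comparisons between groups, 0 of 32 had an adjusted p under 0.05 (edgeR's quasi-likelihood test, Benjamini-Hochberg over 15671 genes). The background was equally low: that rule called 0.00638% of all genes for Psmb5 against mSc, 0.00638% for Psmb8 against mSc and 0.0128% for Psmb8 against Psmb5, which in each case included the transgenes. At an unadjusted p under 0.05 the test also gave 0 members in each comparison, against 0.944%, 2.17% and 1.33% of all genes. These shares lie below the 5% expected where no gene differs, so 0 members in this fit says little by itself. The groups overlapped for all 32 members in all 3 comparisons; over all genes 0.0319%, 0.121% and 0.0893% did not overlap.

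Libraries of the same number resembled each other across groups, so the comparisons were also made within same-numbered trios, by adding the replicate number to the model as a block. With the block the median standard error of the members' log2 fold changes dropped from 0.10 to 0.05, and still 0 of 32 members were called in any comparison, against 0.00638%, 0.325% and 0.0383% of all genes. At an unadjusted p under 0.05 the blocked test gave 4 members for Psmb5 against mSc, 4 for Psmb8 against mSc and 1 for Psmb8 against Psmb5. The same rule took 6.87%, 10.7% and 7.64% of all genes, and nothing particular to the members is read from these few. The differences were also bounded: an interval of 2 standard errors on each side lay within ±0.5 on the log2 scale for all 32 members in each comparison, and within ±0.3 for 27, 27 and 29 of 32. Fas had the widest interval for Psmb5 against mSc, reaching 0.47, which is 1.38-fold. Both subunit groups are compared with the same 6 mSc libraries, so the values that follow are given side by side and are not independent of each other.

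**Figure D2:**
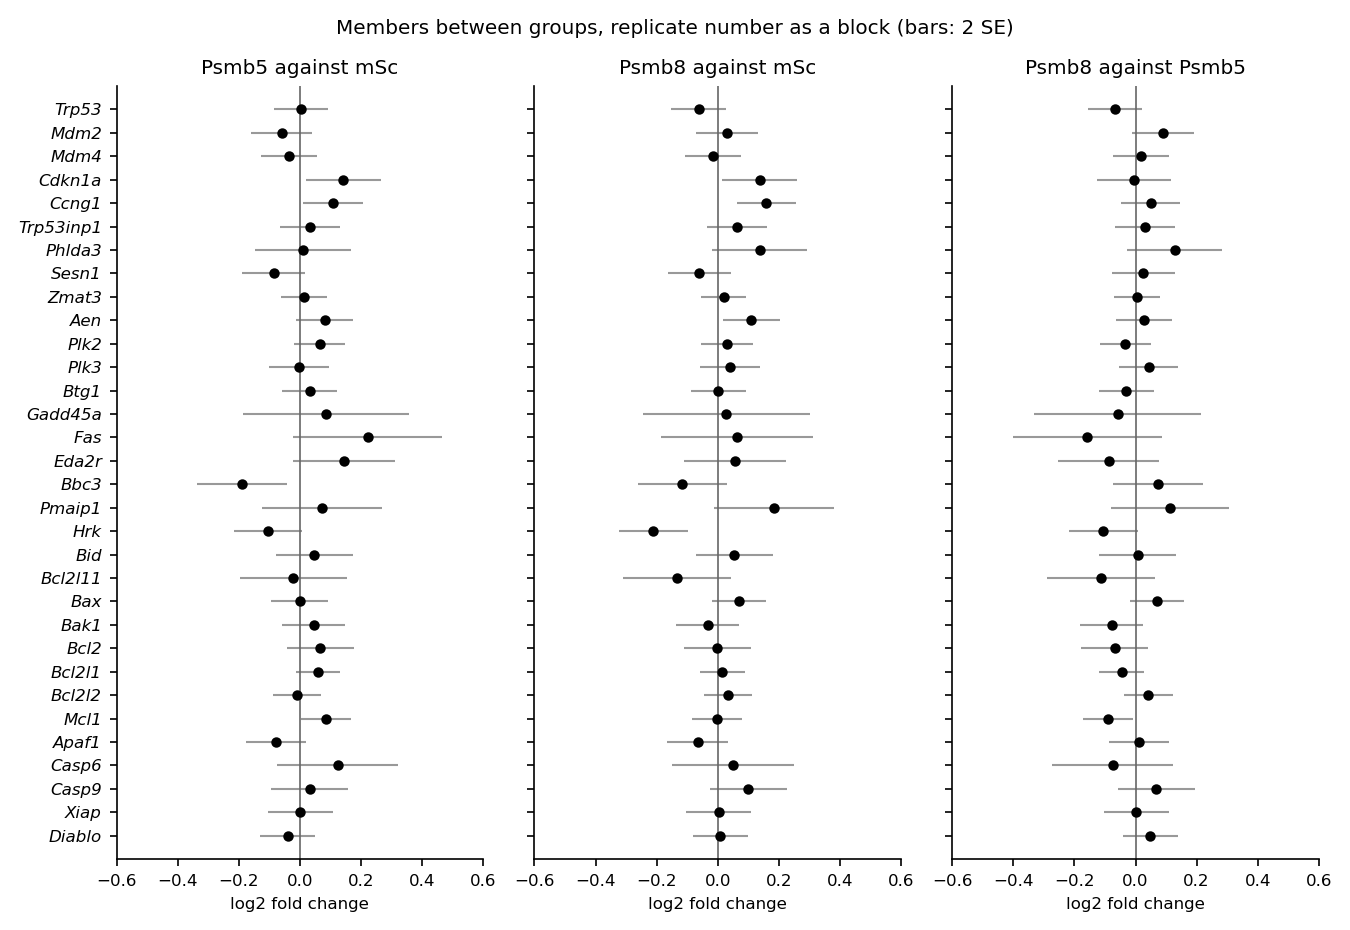
Log2 fold change of each of the 32 genes in the 3 comparisons between groups, from edgeR's fit with the replicate number as a block; points are estimates and bars reach 2 standard errors on each side. All bars stay within ±0.5, and none of the genes had an adjusted p under 0.05.

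Among p53 and its inhibitors the group levels were close. Trp53 ranged from 32.4 to 46.3 CPM in mSc (median 46.1), from 36.2 to 50.1 in Psmb5 (median 44.1) and from 34.0 to 47.6 in Psmb8 (median 42.1). The lowest library of each group was number 1, and the groups overlapped almost wholly. The blocked log2 fold changes of Trp53, Mdm2 and Mdm4 lay between -0.06 and 0.00 for Psmb5 against mSc and between -0.06 and 0.03 for Psmb8 against mSc. Mdm2, which is both inhibitor and target of p53, was 0.09 higher on the log2 scale in Psmb8 than in Psmb5 (SE 0.050, higher in 5 of 6 pairs, adjusted p = 0.722 with the block, edgeR).

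Of the 11 targets that act in growth arrest, repair and feedback, 9 had a blocked estimate above 0 for Psmb5 against mSc and 10 for Psmb8 against mSc, with medians of 0.03 and 0.04 on the log2 scale, and none passed the test. Over all genes, 7986 and 7901 of 15671 were above 0. The 11 genes share the same mSc libraries, so their signs are not independent. The library mSc number 1 was the lowest of its group for Cdkn1a, Phlda3, Zmat3, Aen and Gadd45a, and the highest for Sesn1. These counts of signs were not repeated without it. Ccng1 lay between 87.0 and 105 CPM in mSc (median 101), between 89.9 and 126 in Psmb5 (median 106) and between 98.7 and 131 in Psmb8 (median 106). Its high libraries were number 4 of both subunit groups and number 1 of Psmb8, and the groups overlapped. The blocked log2 difference from mSc was 0.11 in Psmb5 (SE 0.048, higher in 5 of 6 pairs, adjusted p = 0.693, edgeR) and 0.16 in Psmb8 (SE 0.049, higher in 4 of 6, adjusted p = 0.194).

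Cdkn1a spread more widely, from 81.9 to 183 CPM in mSc (median 160), from 118 to 200 in Psmb5 (median 161) and from 129 to 192 in Psmb8 (median 160). The lowest library in each group was number 1, and that of mSc stood far below the next mSc library at 138. The blocked log2 difference from mSc was 0.14 in Psmb5 (SE 0.061, higher in 5 of 6 pairs, adjusted p = 0.677, edgeR) and 0.14 in Psmb8 (SE 0.061, 5 of 6, adjusted p = 0.427). Without mSc replicate 1 and without the block, Cdkn1a gave 0.0001 and -0.01; with the block and without number 1 it gave 0.08 and 0.05.

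Aen, a nuclease induced by p53, lay between 38.5 and 53.5 CPM in mSc (median 48.6) and between 47.3 and 58.2 in Psmb8 (median 51.3). Number 1 was the lowest library of both groups. The blocked log2 difference was 0.11 (SE 0.046, higher in 5 of 6 pairs, adjusted p = 0.386, edgeR). Phlda3, which restrains Akt signalling, lay between 25.9 and 46.4 CPM in Psmb5 (median 35.4) and between 35.7 and 47.8 in Psmb8 (median 37.9), a log2 difference of 0.13 (SE 0.078, higher in 5 of 6 pairs, adjusted p = 0.759). The other targets, Trp53inp1, Sesn1, Zmat3, Plk2, Plk3, Btg1 and Gadd45a, had blocked estimates between -0.09 and 0.09 against mSc in both subunit groups.

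The p53-induced receptor genes Fas and Eda2r stood above mSc in both subunit groups by estimates of 0.22 and 0.15 on the log2 scale in Psmb5 and 0.06 and 0.06 in Psmb8. Their blocked standard errors were 0.12 for Fas and 0.08 for Eda2r in both comparisons, the smallest adjusted p was 0.769, and neither passed the test.

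The BH3-only genes included the member closest to the threshold. Hrk, which is expressed mainly in neurons and binds Bcl2 and Bcl-xL, ran from 91.3 to 143 CPM in mSc (median 121), from 89.7 to 121 in Psmb5 (median 112) and from 81.5 to 122 in Psmb8 (median 99.5). By number the mSc values were 126, 125, 102, 116, 143 and 91.3 CPM and the Psmb8 values 122, 116, 81.5, 102, 96.9 and 90.2. Every Psmb8 library stood below the mSc library of its number, by little for numbers 1 and 6 and most for number 5, although the groups overlapped.

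The blocked log2 difference of Hrk between Psmb8 and mSc was -0.21 (SE 0.056, -13.6%), with an adjusted p of 0.123 in edgeR's quasi-likelihood test; without the block it was -0.21 (SE 0.11, adjusted p = 1.0). DESeq2 with the block gave the same difference an adjusted p of 0.0275, a rule that called 1.81% of the 7468 genes it gave an adjusted p. Without number 5 the blocked difference was -0.14 (adjusted p = 0.340, edgeR), a change of over 1.5 times. Hrk was 1 of 32 members that lay on the same side in all 6 pairs of this comparison, against 5.67% of all genes. In Psmb5, Hrk differed from mSc by -0.10 (SE 0.056, lower in 4 of 6 pairs, adjusted p = 0.762) and in Psmb8 from Psmb5 by -0.11 (SE 0.056, lower in 4 of 6, adjusted p = 0.708). The gene lies at chr5:118164648-118189478 on the plus strand (GRCm38), and its annotated exons overlap no other gene. The summed neuronal markers ranged from 3609 to 4262 CPM in mSc and from 3699 to 4537 in Psmb8; their part in the Hrk difference was not tested.

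Bbc3 ranged from 53.1 to 110 CPM in mSc (median 70.7), from 39.6 to 95.2 in Psmb5 (median 73.8) and from 54.0 to 101 in Psmb8 (median 68.8). In each group number 2 was high and number 1 the lowest, and the groups overlapped. The blocked log2 difference between Psmb5 and mSc was -0.19 (SE 0.073, lower in 4 of 6 pairs, adjusted p = 0.624, edgeR), and without number 5 it was -0.11 (adjusted p = 0.910). In Psmb8 the difference from mSc was -0.12 (SE 0.073, lower in 4 of 6, adjusted p = 0.607). Pmaip1, Bid and Bcl2l11 had blocked estimates of 0.18, 0.05 and -0.13 for Psmb8 against mSc and 0.07, 0.05 and -0.02 for Psmb5 against mSc, with standard errors from 0.063 to 0.098.

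**Figure D3:**
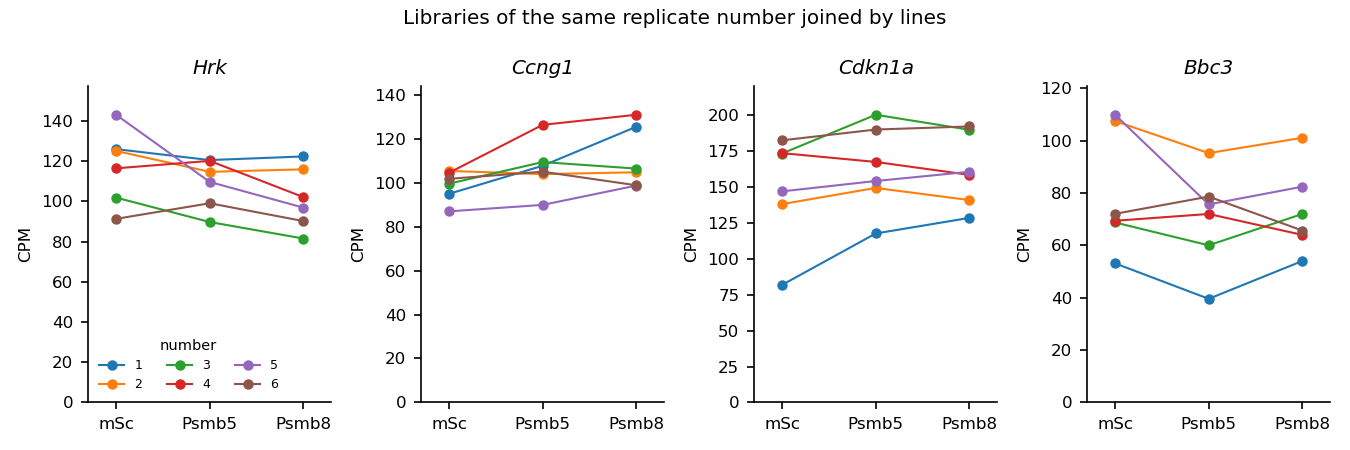
CPM of Hrk, Ccng1, Cdkn1a and Bbc3 in the 18 libraries on linear axes from 0, by group, with the libraries of a replicate number joined by a line. The Hrk lines of all 6 numbers are lower in Psmb8 than in mSc, while the lines of the other 3 genes cross.

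Pore-formers, survival genes and executioners also lay close between groups. Bax ran from 48.1 to 54.9 CPM in mSc (median 52.7), 47.6 to 56.3 in Psmb5 (median 51.9) and 51.3 to 57.5 in Psmb8 (median 54.7). Its groups overlapped, and the estimates were 0.00 and 0.07 against mSc (SE 0.047 and 0.044). Bak1 gave 0.05 and -0.03, Apaf1 -0.08 and -0.07, Casp9 0.03 and 0.10, Xiap 0.00 and 0.00, Diablo -0.04 and 0.01, and Casp6 0.12 and 0.05, in that order for Psmb5 and Psmb8 against mSc.

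Mcl1 lay between 75.2 and 110 CPM in mSc (median 94.2), 79.6 and 113 in Psmb5 (median 105) and 81.0 and 104 in Psmb8 (median 94.1). Number 2 was the lowest library of each group and the groups overlapped. Its blocked log2 difference was 0.09 for Psmb5 against mSc (SE 0.041, higher in 5 of 6 pairs, adjusted p = 0.708, edgeR) and -0.09 for Psmb8 against Psmb5 (SE 0.041, lower in 4 of 6, adjusted p = 0.644). Bcl2l1 was 1 of 32 members on the same side in all 6 pairs of Psmb5 against mSc, against 4.24% of all genes, at a difference of 0.06 (SE 0.037, adjusted p = 0.796); no member was in Psmb8 against Psmb5, against 4.53%. Bcl2 and Bcl2l2 had estimates of 0.07 and -0.01 for Psmb5 and of 0.00 and 0.03 for Psmb8 against mSc.

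Genes of the same pathways outside the 32 gave a like picture at the adjusted threshold. Of 27 further p53 targets, 27 further apoptosis genes and 18 regulators of p53 that were tested, 0 were called in any comparison, with the block or without it. Without the block, 1, 0 and 0 had an unadjusted p under 0.05 for Psmb5 against mSc, 2, 3 and 0 for Psmb8 against mSc, and 0, 0 and 0 for Psmb8 against Psmb5. The unblocked rule took 0.944%, 2.17% and 1.33% of all genes in these comparisons, and 0 of the 32 members in each. With the block, the p53 targets at an unadjusted p under 0.05 were 3 higher and 1 lower for Psmb5 against mSc, 5 and 0 for Psmb8 against mSc, and 1 and 1 for Psmb8 against Psmb5. The apoptosis genes were 1 and 0, 2 and 2, and 0 and 4 in the same order, and the regulators 1 and 0, 1 and 1, and 0 and 0. Of all genes, 6.87%, 10.7% and 7.64% passed that rule with the block.

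The gene of each list with the smallest p for Psmb8 against mSc was Ei24, an endoplasmic reticulum protein, at 0.12 on the log2 scale (SE 0.032, higher in 6 of 6 pairs, adjusted p = 0.135 with the block, edgeR), Cycs, which encodes cytochrome c, at 0.25 (SE 0.061, higher in 5 of 6, adjusted p = 0.0732), and Cop1, a ubiquitin ligase that acts on p53, at 0.13 (SE 0.043, higher in 6 of 6, adjusted p = 0.248). Cycs averaged 49.1 CPM in Psmb8 and 41.0 in mSc. For Psmb5 against mSc the corresponding genes were Dcxr, a carbonyl reductase, at 0.20 (SE 0.075, adjusted p = 0.624), Cycs at 0.16 (SE 0.061, adjusted p = 0.624) and Cop1 at 0.10 (SE 0.043, adjusted p = 0.666). For Psmb8 against Psmb5 they were the DNA repair gene Ddb2 at -0.21 (SE 0.085, adjusted p = 0.578), Casp2 at -0.16 (SE 0.061, lower in 6 of 6 pairs, adjusted p = 0.536) and the checkpoint kinase gene Chek2 at -0.22 (SE 0.12, adjusted p = 0.720).

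Between the replicate numbers, by contrast, most of these genes differed. Of the 32 members, 26 (81.2%) had an adjusted p under 0.05 in a test for any difference between the 6 numbers with group in the model (edgeR's quasi-likelihood F test), against 64.3% of all genes tested. Over the members, the median range of the mean log2 CPM across numbers was 0.43, against 0.42 over all genes, so the sizes were close to those of the whole transcriptome. By role, the 3 genes of p53 and its inhibitors, all 11 targets, both receptor genes, all 5 BH3-only genes and all 4 survival genes were called. Of the apoptosome, caspase and inhibitor genes only Apaf1 was called, 1 of 5, and of Bax and Bak1 neither. The genes not called were Bax (adjusted p = 0.230), Bak1 (0.0810), Casp9 (0.0644), Diablo (0.422), Xiap (0.426) and Casp6 (0.820), whose means ranged over 0.14 to 0.29 on the log2 scale. That these 6 differ less than the others was not tested.

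**Figure D4:**
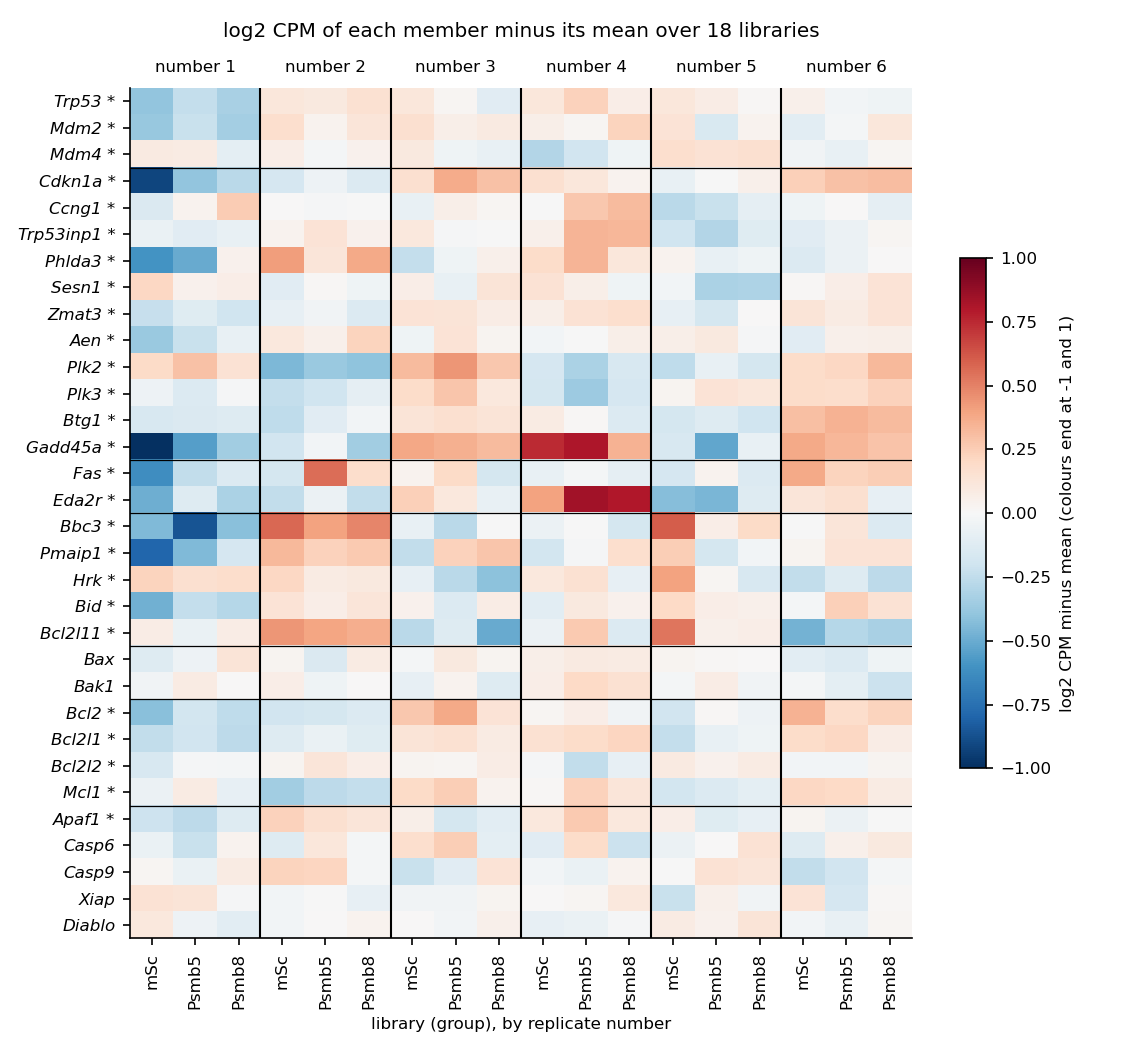
Log2 CPM of each of the 32 genes minus its mean over the 18 libraries, as colour, with libraries ordered by replicate number and genes by role; an asterisk marks the 26 genes called between numbers by edgeR. Number 1 is mostly blue (low) for Trp53, Mdm2 and most targets, but not for Mdm4, Sesn1, Ccng1 and Plk2. Numbers 3 and 6 are red (high) for Plk2 and Btg1, with Plk2 also high in number 1. The value of 1 library, Gadd45a in mSc number 1, lies below the end of the colour scale.

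Number 1 was the low number for many of the members. Of the 26 called members, 14 (53.8%) had their lowest mean in number 1, against 18.4% of all called genes. These were Trp53, Mdm2, Cdkn1a, Phlda3, Zmat3, Aen, Gadd45a, Fas, Bbc3, Pmaip1, Bid, Bcl2, Bcl2l1 and Apaf1. Sesn1 and Hrk went the other way and had their highest mean there, 2 of 26 (7.69%) against 23.6%. The target Ccng1 was not low in number 1 either, at a mean of 109 CPM against 91.9 in number 5. Trp53 lay between 32.4 and 36.2 CPM in the 3 libraries of number 1 and between 39.5 and 50.1 in the 15 others, and Mdm2 between 48.3 and 53.8 against 56.5 to 73.1. Cdkn1a lay between 81.9 and 129 CPM in number 1 and between 138 and 200 elsewhere (adjusted p = 1.3e-06, edgeR). All 3 libraries of number 1, one from each group, were thus below every other library for these 3 genes.

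Gadd45a, a stress sensor in growth arrest and DNA repair, had the widest range of the 32 (1.51 on the log2 scale, adjusted p = 3.7e-05, edgeR). In number 1 it stood at 3.23 CPM (mSc), 7.53 (Psmb5) and 8.68 (Psmb8), and in number 4 at 18.6, 19.5 and 14.1. The single library mSc number 1, with 50 counts, was the lowest by far. Bid lay between 14.6 and 17.3 CPM in number 1 and between 18.6 and 24.1 elsewhere.

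Number 1 also stood apart in markers of other cell types. The mean log2 CPM of the 10 astrocyte markers was 7.76, 7.55 and 7.5 in the mSc, Psmb5 and Psmb8 libraries of number 1 and 6.0 to 6.62 in all others, while the neuronal markers stood at 8.55, 8.64 and 8.56 within an overall range of 8.46 to 8.77. The 5 tested of 8 vascular and fibroblast markers averaged 2.27, 2.22 and 2.63 in number 1 and 0.89 to 1.8 in all others. The 7 tested of 8 oligodendrocyte lineage markers averaged 6.41, 5.95 and 6.02, overlapping the 4.28 to 6.07 of the other numbers. The part of any of these lists in the members' levels in number 1 was not tested. With number 1 left out, 21 of 32 members were called between the remaining numbers, against 55.9% of all genes; Trp53, Mdm2, Aen, Fas, Pmaip1 and Bid were no longer called, and Casp9 was.

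Plk2 had the smallest p of the members (adjusted p = 3.4e-09, edgeR). Its 9 libraries of numbers 1, 3 and 6 lay between 240 and 296 CPM and the 9 of numbers 2, 4 and 5 between 159 and 206, without overlap. Btg1, an antiproliferative gene, lay between 45.3 and 52.8 CPM in numbers 3 and 6 and between 34.8 and 43.9 in the rest (adjusted p = 3.3e-06). These sets of numbers, and those named for other members below, were read from the values and carry no test of their own.

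Plk2 is known as an activity-induced gene, and 18 activity-regulated genes had their highest mean log2 CPM in numbers 3 (6.66, 6.82 and 6.61 in mSc, Psmb5 and Psmb8) and 6 (6.44, 6.54 and 6.58). Number 1 followed at 6.0, 6.17 and 5.85, number 4 at 5.88, 5.65 and 5.68, number 5 at 5.41, 5.68 and 5.63, and number 2 at 5.10, 5.19 and 5.17. Numbers 3 and 6 also had the highest interferon-stimulated genes, with mean log2 CPM of 2.91 to 3.48 and 4.15 to 4.64, against 0.47 to 1.95 in the other numbers (14 of 15 listed genes tested). The part of neither list in the members' levels was tested. With numbers 3 and 6 left out, 23 of 32 members were still called, against 51.5% of all genes, Plk2 among them; Btg1, Hrk and Fas were not.

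The survival genes Bcl2l1, Bcl2 and Mcl1 had their highest means in numbers 4, 3 and 6. The BH3-only genes Bbc3 and Bcl2l11 had theirs in number 2 and Hrk in number 1. The 2 kinds of gene were not kept apart, as Bcl2l2 was highest in number 2 together with Bbc3, Bcl2l11 and Pmaip1, and Bid in number 6 together with Mcl1. Bcl2l1 lay between 89.8 and 99.2 CPM in numbers 3, 4 and 6 and between 71.3 and 82.7 in numbers 1, 2 and 5 (adjusted p = 1.2e-06, edgeR). Bcl2 lay between 28.8 and 34.1 CPM in numbers 3 and 6 and between 19.6 and 27.5 in the rest, and Mcl1 between 75.2 and 89.5 in numbers 2 and 5 and between 90.1 and 113 in the rest. None of these 3 sets overlapped.

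Bbc3 was high where Mcl1 was low, at 75.6 to 110 CPM in numbers 2 and 5 against 39.6 to 78.6 elsewhere, with 1.06 between its highest and lowest mean on the log2 scale (adjusted p = 6.7e-07, edgeR). Bcl2l11 lay between 10.4 and 13.6 CPM in numbers 3 and 6 and between 13.5 and 21.5 elsewhere, and Hrk between 81.5 and 102 against 96.9 to 143. These 3 sets overlapped slightly at their edges. Bcl2l11 and Hrk were thus low in the numbers in which Bcl2 was high.

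Eda2r, a p53-induced receptor of the tumour necrosis factor receptor family, stood at 25.5 CPM in mSc number 4, 34.5 in Psmb5 number 4 and 33.5 in Psmb8 number 4, and between 13.6 and 22.7 in all other libraries (adjusted p = 7.9e-07, edgeR). Number 4 also held the highest mean of Trp53, Ccng1, Trp53inp1, Zmat3, Gadd45a and Bcl2l1. With Eda2r these were 7 of the 26 called members (26.9%), against 20.7% of all called genes. Mdm4, Plk3 and Bcl2l2 had their lowest mean in number 4, 3 of 26 (11.5%) against 19.6%. Cell cycle markers had their highest mean log2 CPM in number 4 too, at 3.50, 3.91 and 4.04 against 1.93 to 3.43 in the other libraries. The part of these markers was not tested.

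**Figure D5:**
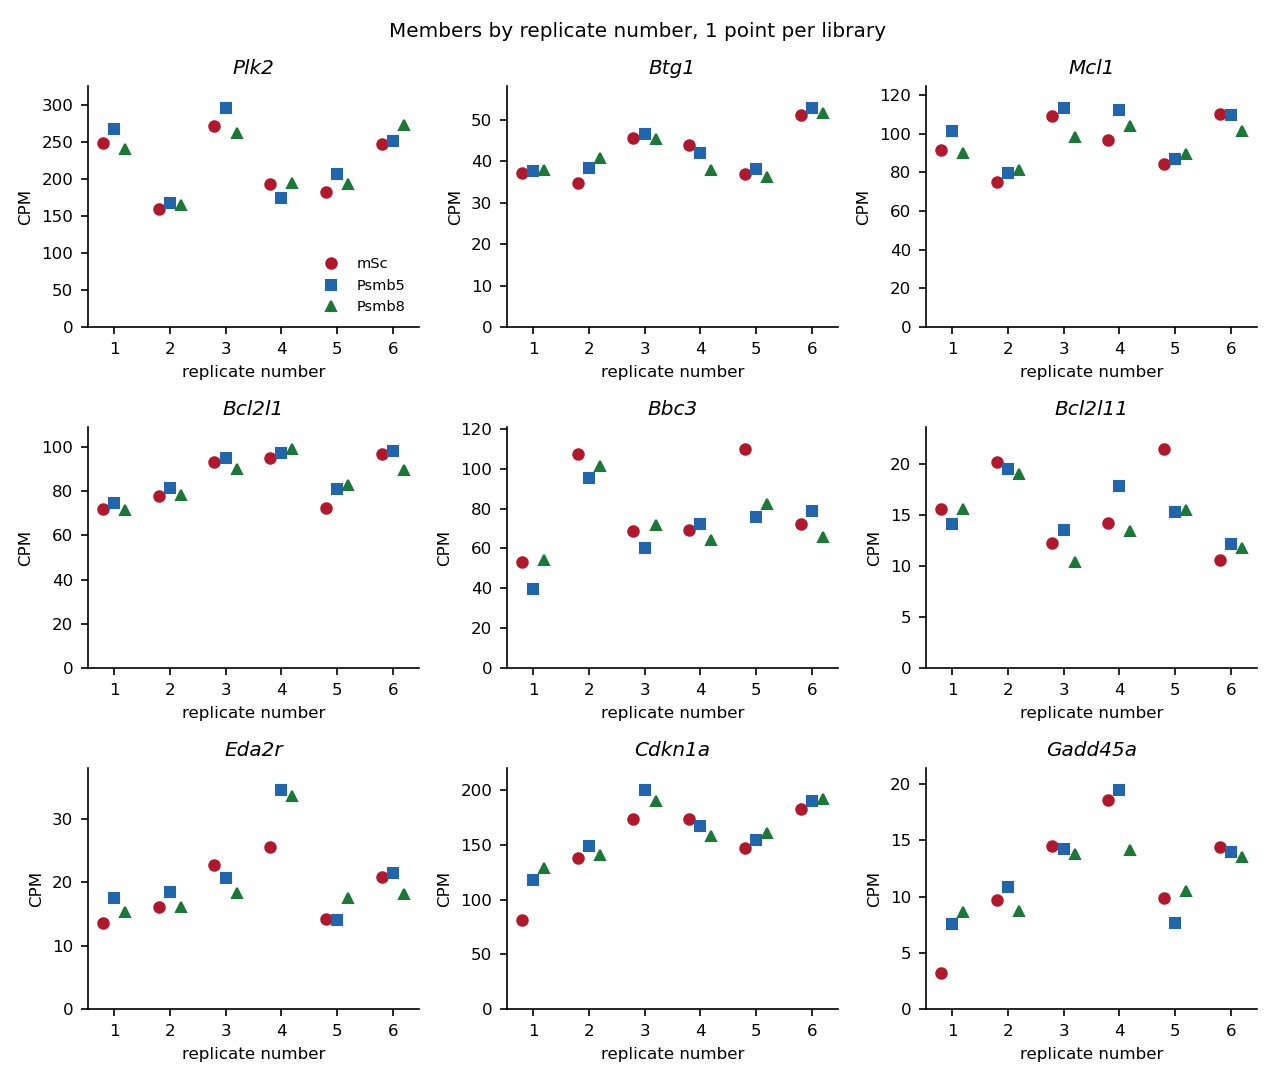
CPM of 9 of the genes by replicate number, 1 point per library on linear axes from 0, with circles for mSc, squares for Psmb5 and triangles for Psmb8. The 3 groups lie close within a number; Plk2 is high in numbers 1, 3 and 6, Eda2r in number 4 and Bbc3 in numbers 2 and 5.

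The further pathway genes also differed between numbers, 18 of 27 p53 targets (66.7%), 18 of 27 apoptosis genes (66.7%) and 9 of 18 regulators (50.0%), against the same 64.3%. The genes with the smallest p were Btg2, a relative of Btg1 (adjusted p = 1.1e-07, edgeR), the receptor gene Tnfrsf1a (1.3e-05) and Cop1 (4.0e-07). Gdf15, a secreted stress factor and p53 target, had the widest range, 2.37 on the log2 scale. In number 4 it stood at 11.9 CPM (mSc), 26.4 (Psmb5) and 20.3 (Psmb8) and in number 1 at 1.42, 4.55 and 6.43, so that number 4 was high for it as for Eda2r.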

How the data were processed

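Raw read counts by Ensembl gene ID were deposited by the authors, as whole numbers in 1 column per library, not pooled. STAR 2.4 and DESeq2, and the builds GRCm39 and mm10, are named in the submitters' processing notes without a role; what counter, strand setting, rule for shared reads and annotation were used is not given in the sources used here. Of 43629 IDs, 42462 were given a symbol.

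Counts were tested with edgeR 4.0.16 (R 4.3.3): filterByExpr, TMM and the quasi-likelihood test on 1 fit of all 18 libraries by group, Benjamini-Hochberg over the 15671 tested genes, threshold 0.05. Standard errors were derived from the F statistic. Log2 CPM used a prior count of 2. At 15337511 to 21074229 counts per library, counting error limits low genes. The fit without replicate number is the reported test and the block its alternative. The reported fit leaves differences between numbers in its error, so the fit with the block is the more sensitive one. The pairing was checked on deviations from the group means: 18 same-numbered pairs correlated at r = 0.447 to 0.729 (mean 0.603), 90 other pairs at -0.535 to 0.648 (mean -0.119). Such deviations sum to 0 over the numbers of a group, so the negative mean of the other pairs follows from the positive one and adds nothing to it. The 2 ranges overlapped. All same-numbered pairs correlated positively, and on that ground the numbers were taken to pair the samples. Within groups, 45 library pairs differed by a chi-square of 2.80 to 35.3 per degree of freedom, so none was counted as a repeat.

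The members and lists were chosen with earlier results of these data known. Fold changes are given for the 4 members with the smallest blocked p per comparison and any called member; between numbers, for the 6 with the smallest p and the 3 with the widest range; per further list, for the gene with the smallest p. Other members are given by level or estimate, and those described by number beyond this rule were chosen after their values were seen. Exon lengths and coordinates are GENCODE M21 on GRCm38, promoters RefSeq GRCm38.p6, which may not be the build of the counts. Alternatives were DESeq2 1.42.0, limma-voom (limma 3.58.1), other size factors, other filters, fits of 2 groups, the block and left-out libraries; leaving out numbers 3 and 6 was chosen after seeing the data. The scripts were tested on simulated data.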

Additional observations from a re-analysis of the deposited data

Results flagged for a closer look

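For each of the 32 genes and 3 groups, 96 sets of 6 libraries in all, the highest and the lowest library were compared with the rest by Dixon's ratio, which singles out about 1 in 20 sets by chance; 7 sets had a library far from the others. The library mSc number 1 had the lowest Trp53 of its group at 32.4 CPM, against 44.2 to 46.3 in the other 5. Psmb8 number 1 had the lowest Bid at 16.8 CPM, against 21 to 22.6.

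Number 4 accounted for 3 of the 7 sets. Eda2r stood at 34.5 CPM in Psmb5 number 4, against 14 to 21.5 in the other Psmb5 libraries, and at 33.5 CPM in Psmb8 number 4, against 15.4 to 18.2. Trp53inp1 stood at 66.0 CPM in Psmb8 number 4, against 48.3 to 54.0. Phlda3 was highest in Psmb8 number 2 at 47.8 CPM, against 35.7 to 39.7. Casp6 was highest in mSc number 3 at 6.80 CPM, against 5.49 to 5.78, at a depth of 88 to 127 counts per mSc library.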

How the results depend on the processing

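The count of 0 members called held under all 30 alternatives for Psmb5 against mSc and for Psmb8 against Psmb5, and under 29 of 30 for Psmb8 against mSc; DESeq2 with the replicate block called 1 member there, Hrk (log2 fold change -0.21, adjusted p = 0.0275), whose adjusted p over the 30 alternatives ranged from 0.0275 to 1.0. Most of the 30 were fits without the block, where 0 members say little by themselves, as in the reported fit. In edgeR the replicate block left the count at 0 in all 3 comparisons. The Cdkn1a difference between Psmb8 and mSc was 0.11 without the block, ran from -0.0109 (without mSc replicate 1) to 0.192 over the alternatives, and reversed in that 1 setting; the low Cdkn1a of that library is given above. Between numbers, 21 to 27 members were called over 12 alternatives. All other alternatives kept each result's direction and side of the threshold. Fas, Casp6 and Gadd45a are limited by depth.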

Other observations

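Ratios of CPM between pairs of members, chosen after the values were seen, were computed within each library. The pairs were Bcl2l1 to Bbc3, Bcl2 to Bcl2l11, Bax to Bcl2 and Mdm2 to Trp53. These ratios are not scaled by length, so only differences between libraries can be read from them. The ratio of Bcl2l1 to Bbc3 in numbers 2 and 5 was 0.73 and 0.66 in mSc, 0.86 and 1.07 in Psmb5 and 0.78 and 1.0 in Psmb8. In the other 4 numbers it ran from 1.25 to 1.89, so that no library of numbers 2 and 5 reached any of the others. By group the ratio was 1.14 ± 0.344 in mSc, 1.33 ± 0.368 in Psmb5 and 1.21 ± 0.278 in Psmb8 (SD, n = 6), and the groups overlapped. In the same order Bcl2 to Bcl2l11 gave 1.84 ± 0.854, 1.84 ± 0.525 and 1.93 ± 0.628. Bax to Bcl2 gave 2.04 ± 0.409, 1.93 ± 0.238 and 2.12 ± 0.337, and the groups overlapped for both.

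The ratio of Mdm2 to Trp53, which compares an inhibitor and target of p53 with the p53 transcript, was steadier. It averaged 1.46 ± 0.0794 in mSc, 1.40 ± 0.113 in Psmb5 and 1.56 ± 0.108 in Psmb8 (SD, n = 6), with overlapping ranges. In number 1, where both transcripts were at their lowest, the ratio was 1.49, 1.49 and 1.46 in mSc, Psmb5 and Psmb8, inside the range of the other numbers.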
